A study of Mus musculus with 8 samples.

Results

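The closed sites described here are the ATAC-seq peaks whose signal was at least 2-fold lower in regulatory T cells without folliculin. Of 57199 peaks in the deposited table of counts, 410 met the rule: a position on chr1 to chr19, a mean of 5 or more CPM (a library's count in the peak per 1000000 counts in all peaks) in wild-type (WT) cells, every WT library above every Flcn KO library, and a mean WT level of 2 or more times the mean Flcn KO level. They made up 1.25% of the 32857 eligible sites, which are the peaks on the same chromosomes with a mean WT level of 5 CPM or more. The same limits with the groups exchanged gave 473 opened sites, 1.43% of 33010. Because the rule used the WT and Flcn KO levels, those levels are given below as a description, with no test.

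The cells were spleen Treg cells of mouse, sorted as CD45.2+CD45.1-CD4+Foxp3-YFP+ from mixed bone marrow chimeras, in which donor marrow of more than one kind shares a host. One group of 4 libraries came from WT chimeras and the other 4 from Foxp3CreFlcnfl/fl chimeras, in which a Cre driven by Foxp3 removes the floxed Flcn alleles in Foxp3-expressing cells. Each library is named as a biological replicate in the labels and was made from 50000 sorted cells. Host and competitor cells, animal ages and library batches were not analysed here.

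Regulatory T cells (Treg cells) are CD4 T cells that hold back immune reactions, and Foxp3 is their defining transcription factor. Flcn encodes folliculin, which works at the lysosome surface, where it lets mTORC1 phosphorylate the transcription factors TFEB and TFE3, which keeps these factors out of the nucleus and away from lysosomal and autophagy genes. ATAC-seq uses a transposase that cuts DNA not held in nucleosomes, so the count in a peak follows how accessible that stretch is. Peaks at gene starts tend to be open in many cell types, whereas peaks far from gene starts include the enhancers that differ more between cell states.

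Gene-start sequences are shown for 4 closed sites whose genes have known roles in immune cells and whose upstream windows held a searched motif. Each is the 250 bases before a transcription start in RefSeq's GRCm38.p6 annotation (the mm10 build), 5′ to 3′ on the gene's strand, with motif matches in capitals. A gene can have several starts there, and those of the Tnfrsf9 and Adam8 windows lie inside the gene span, not at its outer end. Areg, which encodes the growth factor amphiregulin, has its window at chr5:91139349-91139598 on the plus strand, all 250 bases inside the closed site, and the capitals mark the cAMP response element TGACGTCA. Tnfrsf9, a costimulatory receptor of the TNF receptor family, has its window at chr4:150927749-150927998 on the plus strand, 118 bases inside the closed site, and the capitals mark an AP-1 match to TGANTCA. Adam8, a cell-surface metalloprotease, has its window at chr7:139992563-139992812 on the minus strand, 164 bases inside, with the forkhead motif TGTTTAC in capitals, which lies outside the closed site, 34 bases from its edge. Igtp, an interferon-inducible GTPase, has its window at chr11:58199306-58199555 on the plus strand, 201 bases inside, with a short SMAD motif (CAGACA) and a TCF/LEF motif (CTTTGAA) in capitals.
Areg: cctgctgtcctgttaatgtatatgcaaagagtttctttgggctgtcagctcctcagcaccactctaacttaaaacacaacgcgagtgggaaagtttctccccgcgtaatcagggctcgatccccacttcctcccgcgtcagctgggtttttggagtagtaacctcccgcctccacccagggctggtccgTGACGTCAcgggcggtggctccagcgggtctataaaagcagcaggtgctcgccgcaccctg
Tnfrsf9: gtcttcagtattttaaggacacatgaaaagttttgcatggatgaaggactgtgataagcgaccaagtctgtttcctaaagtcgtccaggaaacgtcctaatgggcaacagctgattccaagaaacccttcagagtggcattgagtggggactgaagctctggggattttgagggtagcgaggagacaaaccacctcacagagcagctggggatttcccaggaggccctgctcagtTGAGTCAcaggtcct
Adam8: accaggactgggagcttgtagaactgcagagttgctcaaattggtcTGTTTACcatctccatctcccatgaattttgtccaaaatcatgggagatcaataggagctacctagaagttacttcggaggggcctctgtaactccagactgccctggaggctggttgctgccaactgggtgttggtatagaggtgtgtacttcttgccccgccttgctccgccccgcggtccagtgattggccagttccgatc
Igtp: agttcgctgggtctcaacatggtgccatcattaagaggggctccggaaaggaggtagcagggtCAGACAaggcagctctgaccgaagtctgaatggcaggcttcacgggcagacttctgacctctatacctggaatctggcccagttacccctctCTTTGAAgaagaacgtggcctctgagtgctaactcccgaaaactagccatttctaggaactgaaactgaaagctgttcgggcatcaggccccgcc

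Closed sites overlapped the upstream windows of 11 genes in that table: Adam8, Areg, Dnajb3, Fkbp14, H2ac10, Igtp, Nav2, Slc24a3, Ssh2, Tnfrsf9 and Zfp93. The cAMP response element was in 1 of the 11 windows and in 1.92% of all 21263 windows of this length, the AP-1 motif in 1 and in 6.13%, and the forkhead motif in 1 and in 2.62%. The TCF/LEF motif was in 1 of the 11 and in 4.05% of all, and the short SMAD motif in 2 and in 15.2%. Searched on both strands and found in none of the 11 were the E-box core CACGTG (in 6.63% of all windows), the longer TFE/MITF motif TCACGTGA that contains it (1.01%), ETS CCGGAAGT (3.79%), RUNX TGTGGTTT (1.32%), STAT TTCCNGGAA (0.950%), the GATA-factor motif AGATAA (8.81%), KLF GGGTGTGG (3.32%), NR4A AAAGGTCA (1.2%), SMAD GTCTAGAC (0.183%), T-box AGGTGTGA (0.997%), SP GGGGCGGGG (13.9%) and YY1 CAAGATGGC (0.569%). These are letter matches in windows that a peak may cover only in part, and they say nothing about which factor bound. Sequence of the closed sites outside these windows was not analysed here.

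The libraries differed in depth and 2 of them stood apart at the closed sites. Total counts in peaks ran from 2723344 to 5111728 per library, between 40.7% and 44.1% of counts lay within 1 kb of a gene start, and between 88.7% and 92.7% of counts were even numbers, so most fragments were counted at both ends. Libraries of a group differed from each other by a chi-square of 2.17 to 3.70 per peak, above the 2 that sampling gives when every fragment is counted at both ends. Summed over the closed sites, the WT libraries held 4226, 5528, 3679 and 4017 CPM in replicates 1 to 4, while those of Flcn KO held 1990, 1521, 1377 and 1286 CPM. WT replicate 2 was the highest WT library at 270 of the 410 sites (65.9%), against 30.0% of eligible sites of like level, and Flcn KO replicate 1 was the highest Flcn KO library at 211 sites (51.5%), against 30.5%. The part of these 2 libraries in the results was not tested beyond leaving them out. The Treg and CD4 T cell markers all had peaks, with summed levels of 1668 to 1825 CPM in WT and 1753 to 1995 CPM in Flcn KO, and the strongest Foxp3 peak held 28.8 ± 1.22 CPM in WT against 30.9 ± 5.73 CPM in Flcn KO (SD, n = 4 each). Inside Flcn itself there were 4 peaks and none was a closed site: 2 of them averaged 16.1 and 8.93 CPM in WT and 13.3 and 5.97 CPM in Flcn KO, and the other 2 averaged 0.111 and 0.125 CPM in WT and 3.00 and 3.71 CPM in Flcn KO.

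**Figure D1:**
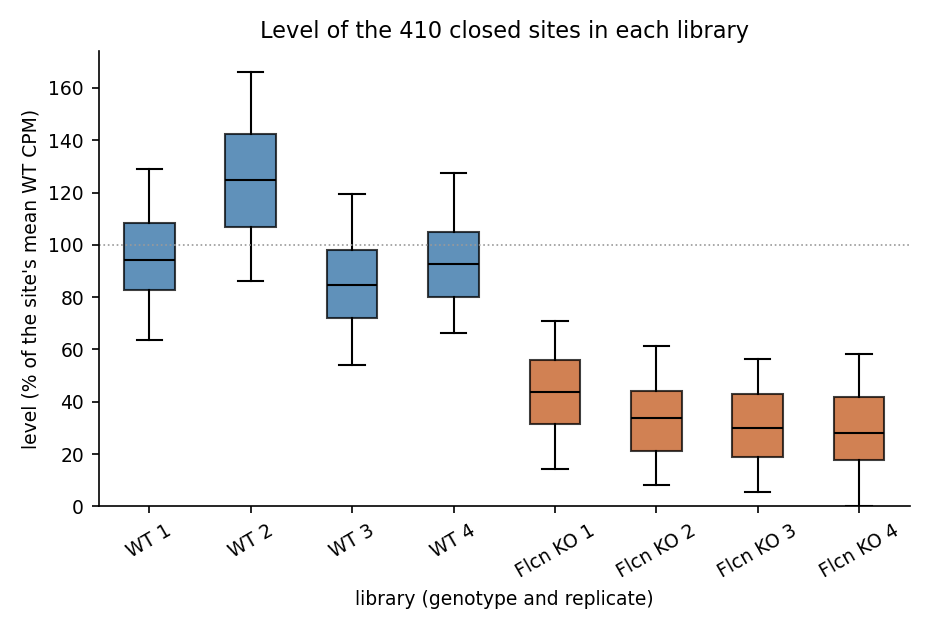
Level of the 410 closed sites in each of the 8 libraries, as a percentage of each site's mean WT CPM; lines are medians, boxes the quartiles and whiskers the 5th and 95th percentiles. WT replicate 2 has the highest WT median (125%) and Flcn KO replicate 1 the highest Flcn KO median (43.9%), against 28.2% to 33.8% in the other Flcn KO libraries.

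Most closed sites kept part of their accessibility. The median site retained 36.1% of its WT level in Flcn KO (quartiles 27.5% and 44.0%), a median 2.77-fold loss, whereas the median eligible site retained 97.9% (quartiles 86.3% and 110%). Under 10% was left at 8 sites, 10% to 25% at 75, 25% to 40% at 175 and 40% to 50% at 152. A loss of 4-fold or more was seen at 83 sites (20.2%). Only the site far from Cdc73 had no count in any Flcn KO library, 49 sites had no count in at least 1 Flcn KO library, and 84 sites still held 5 CPM or more, the level at which a WT peak became eligible. With both libraries that stood apart left out, the rule took 658 sites (2.02% of 32589 eligible), 328 of them among the 410, and the median share left was 38.7%.

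The closed sites were weak to middling peaks. Their median level was 8.33 CPM in WT against 3.00 CPM in Flcn KO, corresponding to medians of 36.5 and 12 counts per site, and 245 sites (59.8%) lay between 5 and 10 CPM in WT. Only 27 exceeded 20 CPM. Among all peaks on chr1 to chr19 their median rank was at the 56.5th percentile in WT and at the 24.3rd percentile in Flcn KO. The gap between groups was often narrow: the lowest WT library exceeded the highest Flcn KO library by a median of 1.37 times, by under 1.2 times at 119 sites and by 2 times or more at 62.

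**Figure D2:**
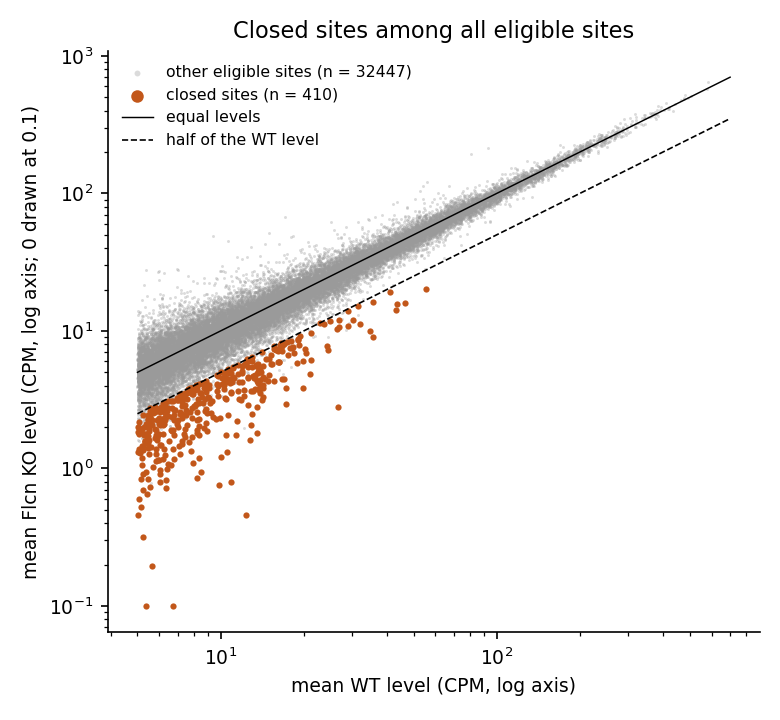
Mean Flcn KO level against mean WT level (CPM, both axes logarithmic, a level of 0 drawn at 0.1) for the 410 closed sites (orange) and the 32447 other eligible sites (grey), with lines at equal levels and at 50% of the WT level. The closed sites lie mostly at low WT levels, and none exceeds 55.5 CPM in WT.

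At the ratio limit, the site just inside lay 130 kb from Prlr (5.54 against 2.77 CPM) and the site just outside lay 20.3 kb from Slc22a15 (7.01 against 3.51 CPM). At the level limit, the site near Stard3nl was just inside at 5.01 CPM in WT, and a site within Itgav was just outside at 4.99 CPM. Values just inside and just outside the limits were nearly equal. Of the eligible sites, 1468 (4.47%) had every WT library above every Flcn KO library, and 234 of the 644 with a 2-fold difference were left out because libraries overlapped.

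The choice was repeated 16 times with 1 WT and 1 Flcn KO library left out, and the ratio of the left-out pair was then read at the sites chosen from the other 6 (0.5 CPM added to both levels). In these libraries, which had no part in the choice, the median ratio was 1.92 over the 16 repeats and ranged from 1.06 to 2.96, while the eligible sites gave 0.993 to 1.04. The left-out WT library was above the left-out Flcn KO library at 54.6% to 91.6% of the chosen sites, against 49.0% to 54.3% of eligible sites. With Flcn KO replicate 1 left out, the median ratio was 1.32, 1.75, 1.06 and 1.22 with WT replicates 1 to 4, which includes the 3 lowest of the 16 values. Summed over the chosen sites, the ratio was 1.06 to 3.16 in the left-out pair, with a median of 1.99, and 2.57 to 2.84 in the libraries that made the choice.

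**Figure D3:**
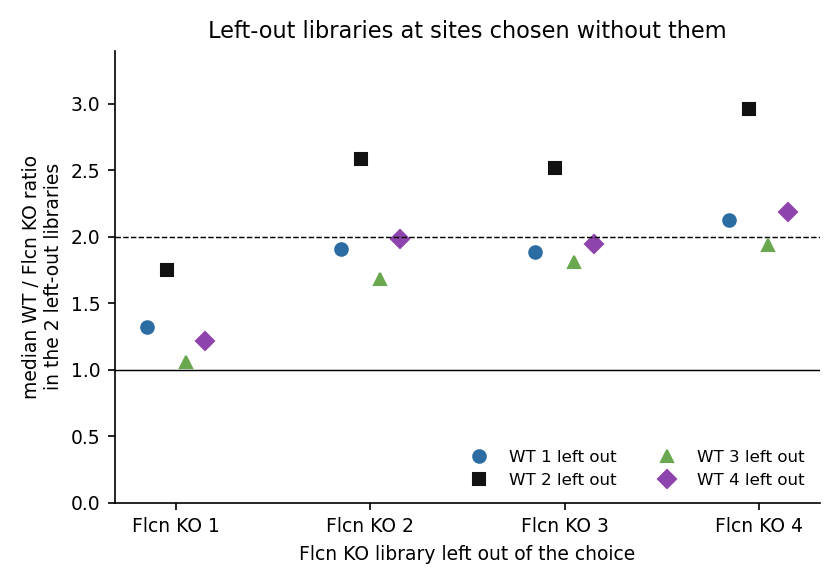
Median WT to Flcn KO ratio in the 2 left-out libraries, at the sites chosen from the other 6 libraries, for each of the 16 left-out pairs; the solid line marks equal levels and the dashed line the 2-fold limit of the rule. For each WT library the ratio is lowest with Flcn KO replicate 1 left out (1.06 to 1.75), and for each Flcn KO library it is highest with WT replicate 2 left out (up to 2.96).

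Fitted over all peaks with edgeR's quasi-likelihood test, 489 of 47859 tested peaks (1.02%) were called lower in Flcn KO at an adjusted p below 0.05, and 299 of the 406 closed sites that passed the filter on low counts were among them. This count uses the same contrast as the rule and adds no support to it. It was 163 without WT replicate 2 and 319 without Flcn KO replicate 1.

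The sites with the deepest loss lay near genes of several kinds. A site at chr1:142695217-142695627, 908 kb from the nearest protein-coding gene Cdc73, held 1.63, 8.44, 7.02 and 4.37 CPM in WT replicates 1 to 4 and 0 in every Flcn KO library. With counts halved to fragments, its 46 WT fragments against 0 were at least 13.8-fold higher, with the floor of 3 fragments taken over the group. The site was chosen by these same counts, so the figure is a description. Only 8 of its 92 WT counts came from WT replicate 1, so the site was thin in that library as well. It was not kept under every omission of a single library.

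A site inside Smco4 (chr9:15501328-15501695) held 4.48, 10.7, 4.01 and 7.76 CPM in WT and 0.391, 0, 0 and 0 CPM in Flcn KO. That is 118 counts against 2, or 59 fragments against 1, a ratio of 53.1 (exact 95% interval over fragments 9.16 to 2131, counting error only). The interval pools each group's libraries and leaves out their spread. It also makes no allowance for the choice of this site by the same counts, so it is no test. The groups were far apart here, and the site stayed a member whichever single library was left out. Leaving out a library cannot make the groups overlap. Staying a member therefore shows only that the mean WT level and the ratio stayed within the limits, here and at the sites below.

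Tead1 encodes a DNA-binding partner of the Hippo pathway coactivators YAP and TAZ. A site 11.3 kb from it (chr7:112918060-112918666) held 15.1, 14.9, 10.8 and 8.73 CPM in WT and 0.783, 1.05, 0 and 0 CPM in Flcn KO, leaving 3.70%. Among the 8 sites with under 10% left it had the highest WT level. The others of that class lay inside Atxn1 (3.46% left), inside Kdm4a (6.06%), which encodes a histone demethylase, inside Nfia (7.39%), 208 kb from Snx16 (7.67%), which encodes an endosomal sorting nexin, and 75.4 kb from C1qtnf3 (9.09%). A site 18.1 kb from Tmtc4 (chr14:123001426-123001730) joined a high WT level to a deep loss, with 17.1, 36.4, 29.1 and 24.3 CPM in WT and 3.13, 3.66, 1.46 and 2.94 CPM in Flcn KO. Sites inside Prkch, the gene of protein kinase C eta (10.2% left), and inside Phlpp1, the gene of a phosphatase that acts on Akt (10.3% left), followed. Of the sites in this paragraph, those at Atxn1, Kdm4a, C1qtnf3 and Prkch were not kept under every omission of a single library, and the others were.

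The strongest closed sites kept a sizeable part of their level. The highest lay inside Pcyox1l (chr18:61707486-61707982) with 53.7, 65.6, 43.6 and 59.2 CPM in WT and 38.9, 18.3, 13.4 and 10.3 CPM in Flcn KO. Flcn KO replicate 1 came close to the lowest WT library there, while the other 3 Flcn KO libraries stayed under 20 CPM. A site inside Lmnb1, which encodes lamin B1 of the nuclear lamina, held 40.7, 48.9, 21.6 and 31.0 CPM in WT and 14.7, 8.89, 7.31 and 5.14 CPM in Flcn KO, 25.3% left. Inside Stx6, the gene of a SNARE protein of the trans-Golgi network, a site held 45.2, 58.7, 29.1 and 31.5 CPM in WT and 22.7, 15.7, 22.9 and 15.4 CPM in Flcn KO, 46.6% left. The rule fixes that the groups do not overlap at these sites, and all 3 had Flcn KO libraries above 5 CPM.

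Few closed sites lay at gene starts. Distances ran to the nearest start of any protein-coding gene, for the 305 closed sites whose nearest gene has a listed start. Of these, 14 (4.59%) lay within 1 kb of a start. Counted the same way, the share was 32.7% for eligible sites. It was 19.3% for the 17127 eligible sites in the same range of WT level (5.47 to 17.3 CPM). The opened sites gave 4.35%. The median distance to the nearest start was 34.9 kb for closed sites, 35.7 kb for opened sites and 17.1 kb for eligible sites of like level. Without both libraries that stood apart, the share within 1 kb was 9.09% (46 of 506), against 32.9% of eligible sites.

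Most closed sites lay inside genes, and many of the rest far from any. Of the 410, 219 (53.4%, Wilson 95% interval 48.6% to 58.2%) lay inside a protein-coding gene, against 62.2% of eligible sites of like level, and 75 (18.3%) lay over 50 kb from any, against 9.87%. The opened sites gave 56.4% and 18.4%, shares close to those of the closed sites. The host genes were long, with a median of 126 kb against 66.2 kb for eligible sites of like level, and 72 of the 219 sites inside genes (32.9%) were in genes over 200 kb, against 16.8%. Site width was near that of the other sites (median 411.5 bases, against 379 at like level). Intervals cover counting error only, and neighbouring sites are not independent. Exons, introns and UTRs were not annotated here.

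**Figure D4:**
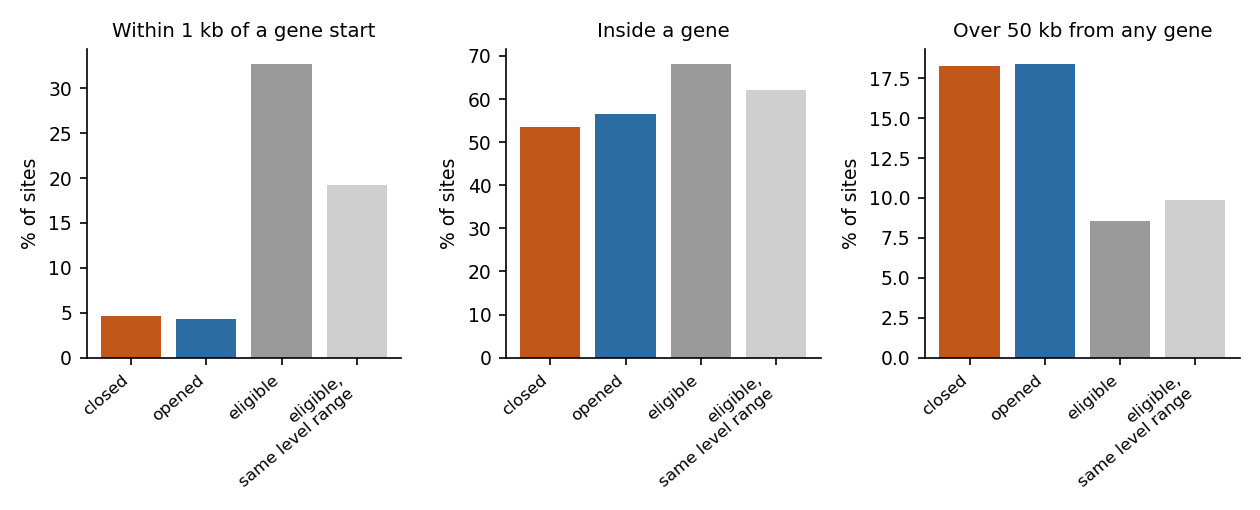
Share of sites within 1 kb of a gene start, inside a protein-coding gene and over 50 kb from any gene, for closed sites, opened sites, all eligible sites and eligible sites of like WT level. Closed and opened sites have near-equal shares, and both differ from the eligible sites, with 4.59% and 4.35% at gene starts against 32.7%.

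The few closed sites at gene starts included genes of immune function. At the Areg start (chr5:91139291-91139872) the levels were 17.5, 21.8, 12.5 and 15.0 CPM in WT and 12.1, 4.18, 5.85 and 6.61 CPM in Flcn KO, 43.0% left. Flcn KO replicate 1 nearly reached the lowest WT library, and the other Flcn KO libraries were well below. A further closed site 15.1 kb upstream (chr5:91124093-91124540) held 13.4, 19.1, 11.5 and 6.31 CPM in WT and 3.91, 3.66, 2.44 and 1.47 CPM in Flcn KO. Areg had 3 eligible sites in all, and the third retained 51.6%.

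A Tnfrsf9 start inside the gene span (chr4:150927881-150928103) is the one whose window with the AP-1 match is printed above. The levels there were 7.73, 5.78, 6.77 and 8.25 CPM in WT and 5.09, 2.09, 0.975 and 2.20 CPM in Flcn KO. The Igtp start (chr11:58199355-58199702) held 6.92, 5.33, 6.27 and 4.85 CPM in WT and 1.56, 1.05, 0.488 and 1.47 CPM in Flcn KO, 19.5% left, the lowest share among the 14. The Adam8 start, also inside its gene span (chr7:139992414-139992726), held 7.73, 5.78, 5.02 and 3.4 CPM in WT and 2.35, 1.57, 0 and 2.94 CPM in Flcn KO. At these 3 starts no WT library reached 10 CPM, and the Adam8 site was lost from the set when 1 library was left out. The other starts were those of Slc24a3, an ion exchanger, Nav2, H2ac10, a histone H2A gene, Zfp93, Fkbp14, Dnajb3, Dip2a, Ssh2, Hps6 and Il2, with 27.4% to 48.5% left. Those of Nav2, Zfp93 and Fkbp14 lie inside the gene span too.

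Most closed sites lay apart from each other. Within 10 kb of another closed site there were 12 (2.93%), in 6 pairs, and no run of 3. Among the opened sites the share was 10.4%, and 45.6% of the closed sites had another eligible site within 10 kb. Read the other way, 4.39% of eligible sites at 2 to 10 kb from a closed site (10 of 228) were closed sites themselves, beside 1.25% of all eligible sites. Within 50 kb the shares were 13.4% of closed and 20.9% of opened sites. The share at 10 kb was 7.79% of the 796 sites the rule took without Flcn KO replicate 1, 6.69% of 628 without WT replicate 3, and 5.47% of 658 without both libraries that stood apart.

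The 6 pairs lay near Ank3, which encodes ankyrin-G, Prune2, Adgrl2, an adhesion G protein-coupled receptor gene, Stat4, A530021J07Rik and Csgalnact1, which encodes an enzyme of chondroitin sulfate synthesis. The pair at Adgrl2 spanned 1117 bases, 350 kb from the gene, with 32.0% and 31.6% left. The pair near Prune2 retained 36.6% and 12.4%. Those inside Stat4, a mediator of cytokine signals, retained 48.9% and 28.2%. Members of a pair thus differed in the share left near Prune2 and Stat4 but not near Adgrl2.

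Eligible sites around the closed sites kept most of their level in Flcn KO. Those within 1 kb that were not closed sites themselves retained a median of 87.9% (n = 20), those at 1 to 2 kb 94.99% (n = 34), those at 2 to 10 kb 91.3% (n = 218), and those at 10 to 50 kb 95.8% (n = 1022), against 98.1% of all eligible sites that were not closed. Of the 819 nearest eligible sites on either side, 46 (5.62%) were closed sites themselves, beside 1.25% of all eligible sites. Of the other 773, 22.8% retained under 75%, against 10.3% of eligible sites that were not closed. The nearest opened site lay beyond 10 kb for all but 2 closed sites. A closed site inside Dipk1a averaged 11.8 CPM in WT against 3.17 CPM in Flcn KO, and the opened site 8.67 kb away 1.95 and 10.7 CPM. A closed site inside Etv6, which encodes an ETS-family repressor, averaged 5.32 and 1.59 CPM, and the opened site 9.01 kb away 2.31 and 6.88 CPM.

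**Figure D5:**
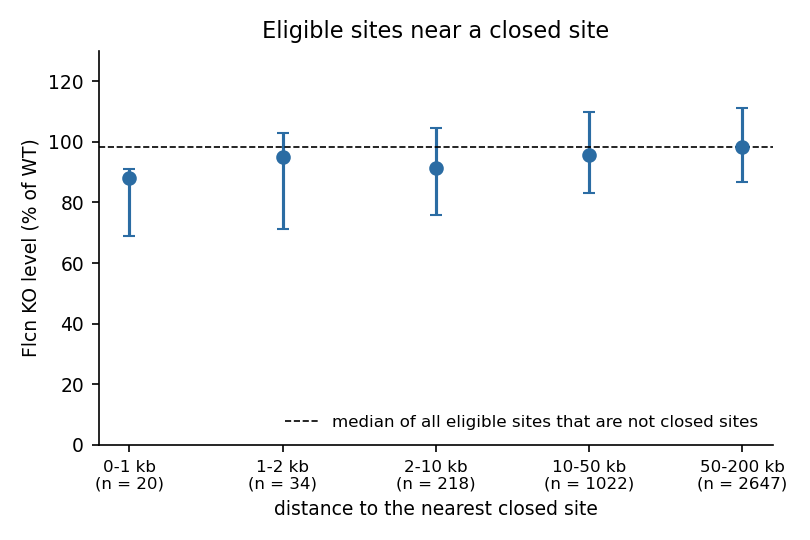
Flcn KO level as a percentage of the WT level for eligible sites that are not closed sites, by distance to the nearest closed site; points are medians and bars the quartiles, and the dashed line is the median over all such sites. Medians run from 87.9% within 1 kb to 98.1% at 50 to 200 kb.

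On a larger scale, the closed sites were spread over 326 bins of 1 Mb, 265 of which held 1. By chromosome the share of eligible sites ran from 0.499% (9 of 1803, chr11) to 1.85% (30 of 1622, chr13). The bin with most lay at 115 to 116 Mb of chr12 with 7 of its 39 eligible sites, inside the immunoglobulin heavy chain locus Igh. In that locus 8 of 56 eligible sites (14.3%) were closed, beside 1.25% of all eligible sites, and none opened. None of the 39 eligible sites of Tra, the 23 of Trb and the 4 of Igk was closed, numbers too small to set against that background. The 8 sites were scattered over 1071 kb, with gaps of 66.8 to 231 kb.

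The other Igh sites had lower sums in Flcn KO too, by a narrow margin. The 8 closed sites summed to 76.1, 104, 72.0 and 65.0 CPM in WT replicates 1 to 4 and to 35.4, 25.1, 31.2 and 32.3 CPM in Flcn KO. The 48 other eligible sites of the locus summed to 780, 882, 811 and 747 CPM in WT and to 650, 532, 744 and 608 CPM in Flcn KO, with a median of 76.5% left. The rule fixes that the first sums do not overlap, and the second did not overlap by a margin of 744 against 747 CPM. B cells rearrange and express this locus, and the summed level at B cell marker genes was 222 to 265 CPM in WT and 269 to 339 CPM in Flcn KO, with 10 of 15 genes having a peak and no peak at Ms4a1, Cd79b, Fcer2a or Fcrla, among others. The part of B cells in the result was not tested. Without both libraries that stood apart, 10 of 57 eligible Igh sites met the rule, and 3 of the 8 stayed members whichever single library was left out.

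Markers of other cell types were read in the same way. CD8 T and NK cell markers summed to 508 to 526 CPM in WT and 542 to 627 CPM in Flcn KO, and myeloid and dendritic cell markers to 263 to 279 CPM and 225 to 276 CPM, with 10 of 22 of the latter without a peak. Each of the B cell and the CD8 T and NK cell lists had 2 opened sites, at Bank1 and at Klrk1. Each also had 1 closed site, of 16 and 20 eligible, too few to set beside the 1.25% of all eligible sites. The closed ones were near Cd22, an inhibitory receptor of B cells (8.50 ± 1.85 CPM in WT against 3.51 ± 1.18 CPM in Flcn KO), and inside Klrb1c, a receptor gene of NK cells (6.80 ± 1.59 and 2.23 ± 0.831 CPM; SD, n = 4). Fewer cells of a type and less accessibility per cell cannot be told apart in these bulk libraries.

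The closed sites were spread thinly over many genes. Assigned to the nearest protein-coding gene within 50 kb, 335 sites fell to 303 genes, and 276 of these had a single closed site. Arhgap10, which encodes a GTPase-activating protein, had 4 closed sites of 14 eligible. Nfia, a transcription factor of the nuclear factor I family, had 3 of 22, the cell adhesion gene Alcam 3 of 8 and A530021J07Rik 3 of 4. In the other eligible sites of these genes the median share left was 82.2%, 107%, 90.9% and 62.3%, and the range was 34.7% to 168% in Nfia and 68.1% to 140% in Alcam.

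The strongest Arhgap10 site (chr8:77435960-77436714) held 33.4, 44.4, 20.1 and 30.1 CPM in WT and 19.95, 8.37, 9.75 and 6.61 CPM in Flcn KO. Flcn KO replicate 1 almost touched WT replicate 3 there. Inside Nfia, the sites at chr4:97860860-97861334, chr4:97871603-97872045 and chr4:97885543-97886055 retained 32.0%, 27.6% and 7.39%, from WT means of 24.3 ± 5.03, 15.6 ± 7.40 and 10.9 ± 6.52 CPM (SD, n = 4). All 3 stayed members whichever single library was left out. Alcam, which encodes a ligand of CD6, had sites with 39.4%, 31.4% and 21.8% left, and 2 further closed sites lay 398 and 426 kb from it.

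Genes with a closed and an opened site numbered 13, which is 4.29% of the 303 genes with a closed site and 3.79% of the 343 with an opened one. Of all 11490 genes with an eligible site, 2.77% had an opened site and 2.64% a closed one. They were Arhgap10, Cdkal1, Cdyl, Crim1, Dipk1a, Etv6, Ikzf2, Itpr1, Nfia, Pde4d, Qrfprl, Spata13 and St6gal1. Near Ikzf2, which encodes the Treg transcription factor Helios, a closed site 31.9 kb away held 7.89 ± 2.74 CPM in WT against 3.49 ± 1.64 CPM in Flcn KO, and an opened site 17.2 kb away 7.09 ± 2.07 and 15.4 ± 4.95 CPM (SD, n = 4). Inside St6gal1, which encodes a sialyltransferase, a closed site averaged 9.09 CPM in WT against 4.04 CPM in Flcn KO, and an opened site 14.5 kb outside the gene 11.4 and 34.7 CPM.

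Genes of Treg identity held 5 closed sites of 255 eligible (1.96%), at Ctla4, Ikzf2, Nt5e and Tnfrsf9, beside 1.25% of all eligible sites. Nt5e encodes CD73, the ectoenzyme that makes adenosine from AMP. A site inside it (chr9:88332435-88332869) held 31.3, 40.9, 25.6 and 23.3 CPM in WT and 9.78, 15.2, 11.7 and 11.0 CPM in Flcn KO, 39.4% left, with the groups well apart. A site 6.09 kb from Ctla4, the inhibitory receptor that Treg cells use against CD28 costimulation, held 12, 13.3, 10.5 and 8.73 CPM in WT and 5.48, 4.71, 5.85 and 2.20 CPM in Flcn KO. Over all 255 eligible sites of these genes the median share left was 104%. Without both libraries that stood apart, the list had 4 of 257 (1.56%), under the 2.02% of all eligible sites.

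Effector and tissue-repair Treg genes held 5 closed sites of 141 (3.55%), at Areg, Il10, Nfil3 and Tigit. Inside Tigit, an inhibitory receptor gene, a site (chr16:43661567-43661781) held 13.2, 11.6, 6.77 and 7.03 CPM in WT and 1.96, 1.05, 2.93 and 3.31 CPM in Flcn KO, 23.9% left. A site 16.1 kb from Il10, the gene of an anti-inflammatory cytokine, held 11.6, 9.56, 5.02 and 6.79 CPM in WT and 3.91, 1.57, 0.975 and 2.57 CPM in Flcn KO. In both genes every Flcn KO library was under 4 CPM. The site near Nfil3, a basic leucine zipper factor, retained 49.2% and was lost from the set when 1 library was left out, while the 4 sites at Areg, Il10 and Tigit were kept. The median over the 141 sites of the list was 96.8%. Without both libraries that stood apart the list had 8 of 140 (5.71%), beside 2.02% of all eligible sites.

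T helper lineage and cytokine genes held 4 of 115 (3.48%), beside 1.25%, and 2 of the 4 were kept whichever single library was left out. The list's 4 closed sites included the pair inside Stat4 and a site 0.252 kb from Il2, the gene of the T cell growth factor. The Il2 site held 4.07, 7.11, 6.02 and 3.88 CPM in WT and 2.74, 1.57, 0.488 and 2.20 CPM in Flcn KO. Without both libraries that stood apart, the list had 2 of 110 (1.82%), under the 2.02% of all eligible sites.

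TGF-beta and BMP signalling genes held 3 of 130 (2.31%), beside 1.25%, and 3 of 126 (2.38%) without both libraries, beside 2.02%. Tgfbr1 encodes the type I receptor of TGF-beta, and a site 1.46 kb from it (chr4:47351458-47351764) held 19.9, 20.9, 20.6 and 17.9 CPM in WT and 3.52, 3.66, 3.9 and 4.41 CPM in Flcn KO, 19.5% left. The libraries of each group lay close together at this site, and WT replicate 2 and Flcn KO replicate 1 did not stand apart. A further site inside Tgfbr1 retained 44.3% and one inside Bmp7, which encodes a bone morphogenetic protein, 46.2%. Neither of these was kept under every omission of a single library.

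Lysosome and autophagy genes of the TFEB and TFE3 network held none of 91 eligible sites, and mTORC1, amino acid sensing and AMPK genes none of 85. Beside 1.25% of all eligible sites, lists of this size are too small to read a difference from 0. They had 3 and 1 opened sites. The median share left over the eligible sites of these lists was 96.6% and 96.9%. Both counts were also 0 without the libraries that stood apart. Naive and resting T cell genes held none of 236 and apoptosis genes none of 122, likewise 0 without those libraries.

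Mitochondrial dynamics and mitophagy genes held 3 of 75 (4.00%), beside 1.25%, and 3 of 74 (4.05%) without both libraries, beside 2.02%. A difference that rests on 3 sites is small, and it was not tested. The median share left over the 75 sites of the list was 95.1%. All 3 were kept whichever single library was left out. Mcu encodes the mitochondrial calcium uniporter, and a site 25.3 kb from it held 8.95, 13.3, 12 and 9.22 CPM in WT and 1.57, 6.28, 4.39 and 2.20 CPM in Flcn KO. Mfn2 encodes mitofusin 2, which fuses outer membranes, and a site inside it held 5.90, 7.56, 7.53 and 7.76 CPM in WT and 3.72, 3.66, 2.44 and 2.94 CPM in Flcn KO. A site inside Chchd3, which encodes a protein of the cristae junction complex, retained 29.0%. Among glycolysis, TCA and lipid synthesis genes 1 of 122 was closed, inside Lss, the gene of lanosterol synthase (27.9% left).

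T cell receptor and costimulatory signalling genes held 5 of 347 (1.44%), near the 1.25% of all eligible sites. Without both libraries that stood apart they held 10 of 345 (2.9%), beside 2.02%. Sites near the Src-family kinase genes Lyn and Fyn retained 25.4% and 42.6%, a site inside Ptpn22, a phosphatase gene that restrains T cell receptor signals, 41.9%, and sites near the HMG-box factor genes Tox2 and Tox 20.7% and 43.5%. At Lyn the WT libraries held 14.6, 22.7, 8.53 and 9.70 CPM and the Flcn KO libraries 3.52, 4.71, 2.93 and 2.94 CPM. Without both libraries, adhesion and migration genes held 5 of 224 (2.23%), near the 2.02% of all eligible sites. With every library they held 4 of 225 (1.78%), beside 1.25%, 3 of them inside Alcam. The fourth lay 9.96 kb from Npnt, which encodes a matrix ligand of integrins, with 23.0, 27.6, 13.5 and 20.4 CPM in WT and 11.0, 4.71, 1.46 and 2.20 CPM in Flcn KO.

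Further families were taken by gene symbol, and like the lists above they were not matched for the share of sites at gene starts. Interleukin, chemokine and TNF family genes held 9 of 322 (2.80%), beside 1.25% of all eligible sites. They lay at Cxcl1, Il10, Il17rd, Il2, Il20ra, Tnfrsf8, Tnfrsf9 and Tnfsf9. The site 11.5 kb from Cxcl1, a neutrophil-attracting chemokine gene, held 12.2, 12.9, 12 and 13.3 CPM in WT and 5.87, 3.66, 3.41 and 5.14 CPM in Flcn KO, with little spread in WT. Tnfsf9 encodes the ligand of the Tnfrsf9 receptor, and the site 1.01 kb from it retained 41.9%. A site 46.7 kb from Vav3, which encodes a guanine nucleotide exchange factor, held 9.36, 24.9, 7.02 and 15.5 CPM in WT and 6.26, 1.05, 4.39 and 3.67 CPM in Flcn KO.

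Beside 1.25% of all eligible sites, protein tyrosine phosphatases held 4 of 174 (2.30%), at Ptpn4, Ptpn22 and Ptprc, the gene of CD45. Glycosyltransferases held 7 of 349 (2.01%), at Ext1, Galnt7, Galnt9, Galnt14, St6gal1 and Xylt1, and matrix genes 2 of 111 (1.80%). Cadherins held 1 of 49, at Cdh17. Solute carriers (7 of 546, 1.28%), regulators of Ras-, Rap-, Rab- and Arf-type GTPases (4 of 323, 1.24%), ion channels (3 of 261, 1.15%) and zinc-finger and homeobox transcription factors (10 of 994, 1.01%) were near the share of all eligible sites. Ubiquitin ligases held 1 of 645 (0.155%), near Rchy1, an E3 ligase gene, with 21.6, 23.1, 12.5 and 11.6 CPM in WT and 3.52, 0.523, 5.61 and 2.20 CPM in Flcn KO. Without both libraries that stood apart, ubiquitin ligases held 5 of 639 (0.782%), phosphatases 9 of 175 (5.14%), glycosyltransferases 10 of 345 (2.9%), matrix genes 4 of 103 (3.88%), solute carriers 13 of 537 (2.42%), ion channels 6 of 252 (2.38%), the interleukin, chemokine and TNF families 11 of 312 (3.53%) and the transcription factors 16 of 987 (1.62%), beside 2.02% of all eligible sites. Axon guidance genes held none of 113. Of the 335 assigned sites, 250 belonged to none of the lists or families.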

How the data were processed

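ATAC-seq was measured in 4 WT and 4 Flcn KO libraries. Per the submitters' processing notes, the tools were MACS2 2.1.1, BWA 0.7.16, bedtools 2.25.0, Trimmomatic 0.36, SAMtools 1.9 and Picard 2.9.4, and the build was mm10, with no role or order given. Whether peaks were called on pooled reads, and whether reads were shifted for the transposase, is not given in the sources used here. What the authors deposited is a table of 57199 peaks with whole-number counts per library, and these deposited counts are the only values used. Peak starts were taken to count from 0 and are printed counted from 1.

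CPM is the count divided by the library's total count in the table, times 1000000. Total counts ran from 2723344 to 5111728, so 5 CPM is a small number of fragments and precision at single sites is low. For sites with few counts, counts were halved to fragments and rounded up, a choice made after seeing the data. Genes are protein-coding spans of RefSeq, and transcription starts come from promoter windows that cover 79.9% of those genes. A peak was assigned to the nearest gene within 50 kb. Of 494 gene list entries in 15 lists, 492 matched, and 12 families were taken by gene symbol. Their shares were set beside that of all eligible sites with no test, and many rest on few closed sites. They were not matched to all eligible sites for distance to a gene start, where few closed sites lay. No genome was used, so the planned search for motifs in peaks was not run. The members, gene lists, families and comparisons were chosen with earlier results of these data known. Members were named by rule: largest ratio, highest WT or Flcn KO level, Flcn KO libraries at 0, closest pairs, genes with most members, list members with the lowest share left, gene starts and the limits of the rule. The sites at Igh, Igtp, Adam8, Hps6, Ikzf2, Nfil3, Fyn, Tox, Tnfsf9, Dipk1a, Etv6 and St6gal1, the Alcam sites far from the gene and the family members given only by symbol were named after their values were seen. Peaks on chrX and chrY were left out by the rule. Results on a few genes and 1 gene family are not reported here.

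The count test was edgeR 4.0.16 (quasi-likelihood, TMM, filterByExpr, robust) in R 4.3.3, with Benjamini-Hochberg adjustment over all tested peaks at 0.05, genotype as the only term. The script was tested on simulated counts with 200 changed peaks. Alternatives were other scalings (DESeq2 1.42.0 size factors), limits of the rule, depth, DESeq2, limma 3.58.1 voom, a replicate block and leaving out each library.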

Additional observations from a re-analysis of the deposited data

Results flagged for a closer look

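Groups of 4 libraries were examined at 109 sites and for library-wide sums and shares, 226 groups in all. In 11 of them, each at a single site, 1 library lay far from the other 3, which chance alone gives in about 1 of 20 groups. WT replicate 2 was the high library 4 times, with 10.2 CPM near Prelid2, 9.33 CPM inside Csgalnact1, 10.2 CPM inside Itpr1 and 17.3 CPM at the Igh site 595 kb from Zfp386. Flcn KO replicate 1 was the high library 4 times, with 0.391 CPM inside Smco4 and 0.783 CPM inside Atxn1, where the other 3 Flcn KO libraries had no count, 29.0 CPM near Slc17a6, which encodes a vesicular glutamate transporter, and 28.6 CPM near Kif5c, which encodes a kinesin heavy chain. A low WT library was seen inside Phlpp1, with 4.52 CPM in WT replicate 3, and inside Mfn2, with 5.90 CPM in WT replicate 1. At the Igh site 992 kb from Zfp386, Flcn KO replicate 4 was high at 4.41 CPM.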

How the results depend on the processing

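With a minimum WT level of 3 or 10 CPM in place of 5, the rule took 659 or 165 sites, with a ratio of 1.5 or 3 it took 817 or 169, and with overlap between libraries allowed 644. Leaving out 1 library gave 341 (without WT replicate 2) to 796 sites (without Flcn KO replicate 1), and 628 without WT replicate 3. Leaving out both WT replicate 2 and Flcn KO replicate 1, chosen after seeing the data, gave 658 sites. Of the 410 sites, 248 (60.5%) were taken in each of the 8 choices that left out 1 library. Because leaving out a library cannot make the groups overlap, these choices bear only on the level and ratio limits. TMM scaling gave 406 sites, 401 of them shared, and thinning each library to 2723344 counts gave 411, of which 302 were shared. The median share left was 49.9% at a ratio of 1.5, 25.4% at 3 and 36.7% to 38.5% with 1 library left out. The share inside a gene stayed between 49.7% and 57.3% in the settings tried, and between 52.7% and 56.4% with 1 library left out. The share with another closed site within 10 kb was 5.14% at a ratio of 1.5, 6.21% with overlap allowed, 5.47% without both libraries, 13.4% at 50 kb, and 2.59% to 7.79% with 1 library left out. The median ratio of left-out pairs, at the sites chosen without them, ran from 1.06 to 2.96.

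Peaks called lower by edgeR numbered 489, and 217 (without WT replicate 2) to 947 (without Flcn KO replicate 1) with 1 library left out, with 163 to 319 closed sites among them. DESeq2 called 550 and limma-voom 331. With the replicate number as a block, 639 peaks were called lower, 307 of them closed sites. The replicate numbers showed no clear pairing: the correlation of deviations between same-numbered WT and Flcn KO libraries ran from -0.10 to 0.14. Only 1 of 4 WT libraries correlated best with its own number. The highest correlation of any WT with any Flcn KO library was 0.24, between WT replicate 2 and Flcn KO replicate 1, the libraries that stood apart. Correlations this weak cannot settle whether samples were paired. Depth limits single sites: the median closed site rests on 36.5 WT and 12 Flcn KO counts per library, most of them both ends of 1 fragment.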
